A study of Homo sapiens with 12 samples.

Results

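ZNF558, ZNF560, ZNF248, ZNF280B, ZNF280D and ZNF502 are 6 human genes for C2H2 zinc finger proteins whose array signal was present in some cultures of embryonic stem cells and absent in others. They are 6 of 13951 genes with a detected probe, and they were chosen on these same arrays, from their signal over the groups, so their levels are given as a description and without a test. All probes annotated to them were read, 8 in all (3 for ZNF280D and 1 for each other gene), and all 8 passed the filter on dim probes, which asked for detection on at least 2 of 12 arrays. The probes were ILMN_1766195 for ZNF558, ILMN_1798974 for ZNF560, ILMN_1662192 for ZNF248, ILMN_1654697 for ZNF280B, ILMN_1655167 for ZNF502 and, in the order of description, ILMN_1767142, ILMN_1736555 and ILMN_2367530 for ZNF280D. A probe counted as detected where its detection p-value, which sets its signal against the negative control beads of the same array, was under 0.05. Levels are log2 intensities after background correction and normalization over all 12 arrays.

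H9 and CT2, the cells studied, are established lines of human embryonic stem cells, and their total RNA was hybridised to Illumina bead arrays. In each line 1 culture type received an shRNA against JMJD1C, which encodes a demethylase-family protein of histone H3 lysine 9, and is called the knockdown here. Another received a mismatch shRNA, the hairpin control, and the last was untreated. With 2 arrays for each of the 6 groups, the groups were H9 knockdown, H9 mismatch, untreated H9, CT2 knockdown, CT2 mismatch and untreated CT2. No label says whether the 2 arrays of a group came from separate cultures, or whether the hairpin cells were 1 clone or a pool, so the spread between arrays may be technical. The labels give no further genotype.

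The detected share of probes was 44.7 to 47.31% on all arrays. By its highest-mean probe, JMJD1C averaged 10.65, 11.73 and 12.01 in H9 knockdown, mismatch and untreated cells. In CT2 it averaged 10.74, 12.22 and 11.71 in the same order, so the target was lowest in both knockdown groups. Another JMJD1C probe was also lowest there, at 9.85 in H9 and 9.93 in CT2 knockdown cells. The remaining probe was undetected on all 12 arrays. Of 10 embryonic stem cell markers listed, 9 were on the array and were detected on both arrays of every group. The neural markers PAX6, SOX1 and OTX1 and the fibroblast markers COL3A1 and LUM were undetected in every group. The other 2 of 5 neural markers, NES and FABP7, were detected on both arrays of every group. The neural list summed to an intensity of 3991 to 8187. Of the 6 fibroblast or feeder markers, 4 were detected on both arrays in untreated H9 and 3 in each other group. That list summed to 8486 to 14570. In H9 knockdown cells 2 of 5 mesoderm and endoderm markers (MIXL1 and FOXA2) were detected on both arrays, with a summed intensity of 302.7 to 371.3, against 185.1 to 193.1 in H9 mismatch cells with 0 of 5, and their part in the results was not tested. Of 5 trophoblast markers 0 or 1 was detected on both arrays of a group, with CGA and GATA3 undetected everywhere. In bulk RNA, fewer cells of a type and less RNA per cell cannot be told apart. Replicate arrays correlated at 0.9674 to 0.9909 over all genes. The second CT2 mismatch array stood apart: it correlated at 0.9674 with its own replicate and best, at 0.9714, with an untreated H9 array, and the differences that use it are also given without it.

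C2H2 zinc finger proteins form the largest family of human transcription factors and bind DNA through arrays of small zinc-coordinating fingers. Many, among them ZNF558, ZNF560 and ZNF248, also carry a KRAB domain, which recruits the corepressor TRIM28 and with it the histone H3 lysine 9 methyltransferase SETDB1, so that the bound locus is silenced. Many of the KRAB genes lie in clusters on chromosome 19. In embryonic stem cells these proteins are best known for silencing retrotransposons. ZNF280B and ZNF280D belong to a small family related to the Drosophila protein suppressor of hairy wing. DNA methylation was not measured on these arrays.

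The promoters of 4 of the genes are shown because their probes read at background in a whole line or treatment group, 1 gene for each kind of pattern described here. Each line gives the 250 bases before the RefSeq transcription start, 5′ to 3′ on the gene's strand in build GRCh38.p14, with every CG dinucleotide in capitals.
ZNF558, chr19:8832305-8832554, minus strand: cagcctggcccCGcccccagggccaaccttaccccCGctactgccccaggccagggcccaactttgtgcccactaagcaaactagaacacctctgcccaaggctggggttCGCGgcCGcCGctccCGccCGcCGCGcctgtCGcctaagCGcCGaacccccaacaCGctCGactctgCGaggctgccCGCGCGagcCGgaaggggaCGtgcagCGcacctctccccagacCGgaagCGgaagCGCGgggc
ZNF560, chr19:9498617-9498866, minus strand: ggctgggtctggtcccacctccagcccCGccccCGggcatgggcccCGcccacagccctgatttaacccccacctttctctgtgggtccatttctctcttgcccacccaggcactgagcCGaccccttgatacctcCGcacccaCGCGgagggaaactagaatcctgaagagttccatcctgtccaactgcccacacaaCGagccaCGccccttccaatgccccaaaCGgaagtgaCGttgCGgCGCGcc
ZNF280D, chr15:56733510-56733759, minus strand: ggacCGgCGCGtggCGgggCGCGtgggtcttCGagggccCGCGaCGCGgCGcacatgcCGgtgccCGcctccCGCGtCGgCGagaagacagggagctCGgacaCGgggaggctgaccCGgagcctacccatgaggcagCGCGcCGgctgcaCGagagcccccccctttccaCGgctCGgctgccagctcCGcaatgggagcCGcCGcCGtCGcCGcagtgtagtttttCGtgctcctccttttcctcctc
ZNF502, chr3:44712410-44712659, plus strand: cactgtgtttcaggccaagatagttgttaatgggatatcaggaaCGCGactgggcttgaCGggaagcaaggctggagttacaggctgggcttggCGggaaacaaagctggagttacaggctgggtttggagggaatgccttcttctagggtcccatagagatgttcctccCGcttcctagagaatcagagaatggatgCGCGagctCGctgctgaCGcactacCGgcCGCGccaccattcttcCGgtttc

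These windows differ in CG content. The ZNF280D window holds 34 CG dinucleotides, and 6.84% of all 35116 promoters in the same table hold as many. The ZNF558 window holds 26 (19.6% of promoters hold as many), ZNF560 14 (44.8%) and ZNF502 13 (46.6%), against a median of 11 over all promoters. ZNF558 has another annotated start, whose window holds 3, and the 3 starts of ZNF248 have 13, 14 and 28. The table holds promoters of 5 of the 6 genes, with 8 starts. On either strand the motif CCGGAA, the core of sites for ETS factors, occurs 2 times in the printed ZNF558 window and 1 time in that of ZNF502, and 14.5% of all promoters hold it. The motif TGACGT, the core of sites for CREB and ATF factors, occurs 1 time in the ZNF560 window, and 7.1% of all promoters hold it. The motifs differ in sequence and neither contains the other, and a match describes only the letters.

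ZNF560, a KRAB zinc finger gene on chromosome 19 of which little is known, was detected on all 6 CT2 arrays and on none of the 6 H9 arrays. In H9 its signal was 4.89 and 4.80 in knockdown cells, 5.01 and 4.85 in mismatch cells and 5.12 and 4.95 in untreated cells, with detection p-values of 0.5494 to 0.9351. In CT2 it was 9.31 and 9.28 in knockdown cells, 9.09 and 9.28 in mismatch cells and 9.24 and 9.73 in untreated cells. No H9 array came within 3.96 of the lowest CT2 array on the log2 scale. Where a whole group was undetected, the fold is a bound, taken against the lowest signal among detected probes of each array or the probe's own, whichever was higher. By that bound ZNF560 was at least 10.1-fold lower in H9 than in CT2 with the knockdown, at least 8.93-fold lower with the mismatch hairpin and at least 11.6-fold lower in untreated cells. Within CT2 the groups overlapped: the knockdown averaged 9.30 ± 0.02, the mismatch cells 9.18 ± 0.14 and the untreated cells 9.48 ± 0.35 (SD, n = 2 each).

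ZNF558, also on chromosome 19, encodes a KRAB protein known in human neural progenitor cells for repressing the mitophagy gene SPATA18. It had the opposite line pattern, with detection on all 6 H9 arrays and on none of the 6 CT2 arrays. In H9 it read 6.45 and 7.60 in knockdown cells, 9.45 and 9.26 in mismatch cells and 9.52 and 8.72 in untreated cells. Both knockdown arrays were below all 4 other H9 arrays, and they differed from each other by more than any other H9 pair of replicates. In CT2 it read 4.77 and 4.77, 5.05 and 4.86, and 5.02 and 4.85 in the same order of groups, with detection p-values of 0.661 to 0.9597. The knockdown mean in H9 was 7.02 ± 0.82, against 9.36 ± 0.13 in mismatch and 9.12 ± 0.56 in untreated cells (SD, n = 2 each). The difference from mismatch cells was −2.33, or 5.04-fold lower, with an SD of the difference of 0.83. Leaving out the first knockdown array made it −1.76, and leaving out the second −2.91. The difference from untreated H9 cells was −2.10, or 4.29-fold lower. Mismatch and untreated cells of H9 overlapped. In the same H9 knockdown cells the 6 fibroblast or feeder markers summed to an intensity of 13740 to 14570, against 9501 to 10040 in H9 mismatch and 10160 to 10870 in untreated H9 cells, with COL3A1 and LUM undetected in all 3 groups; their part in the result was not tested. The knockdown and mismatch comparisons share their mismatch arrays, and those with untreated cells share the untreated arrays. ZNF558 was at least 2.02-fold higher in H9 than in CT2 with the knockdown, at least 10.2-fold with the mismatch hairpin and at least 8.56-fold in untreated cells. Unlike an undetected probe, ZNF558 stayed detected on both H9 knockdown arrays.

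ZNF248, a KRAB zinc finger gene on chromosome 10, was detected on all 6 H9 arrays and on none of the 6 CT2 arrays. It read 8.79 and 7.99 in H9 knockdown, 7.92 and 8.33 in H9 mismatch and 8.16 and 8.02 in untreated H9 cells. In CT2 it read 5.33 and 5.07 in knockdown, 5.36 and 5.68 in mismatch and 5.68 and 5.36 in untreated cells, with detection p-values of 0.1247 to 0.5948. The lines were apart by 2.23 at their nearest arrays, and the 3 H9 groups overlapped one another. It was at least 5.22-fold higher in H9 than in CT2 with the knockdown, at least 4.32-fold with the mismatch hairpin and at least 4.18-fold in untreated cells.

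ZNF280B, on chromosome 22, had the same line pattern. It read 8.62 and 9.16 in H9 knockdown, 8.82 and 8.91 in H9 mismatch and 8.96 and 8.70 in untreated H9 cells. In CT2 it read 5.14 and 5.72 in knockdown, 5.37 and 5.25 in mismatch and 5.39 and 5.26 in untreated cells, with detection p-values of 0.1078 to 0.5208. All 6 H9 arrays were above all 6 CT2 arrays by 2.90 or more, and the 3 groups of a line overlapped. The bounds were at least 7.38-fold higher in H9 than in CT2 with the knockdown, 7.23-fold with the mismatch hairpin and 6.98-fold in untreated cells. Its relatives had other patterns: ZNF280A was undetected on all 12 arrays (detection p 0.3403 to 0.8455), and ZNF280C, known as an inhibitor of DNA end resection, was detected on all 12 at 9.80 to 10.30 and was called in none of the comparisons of limma's all-gene fit.

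**Figure D1:**
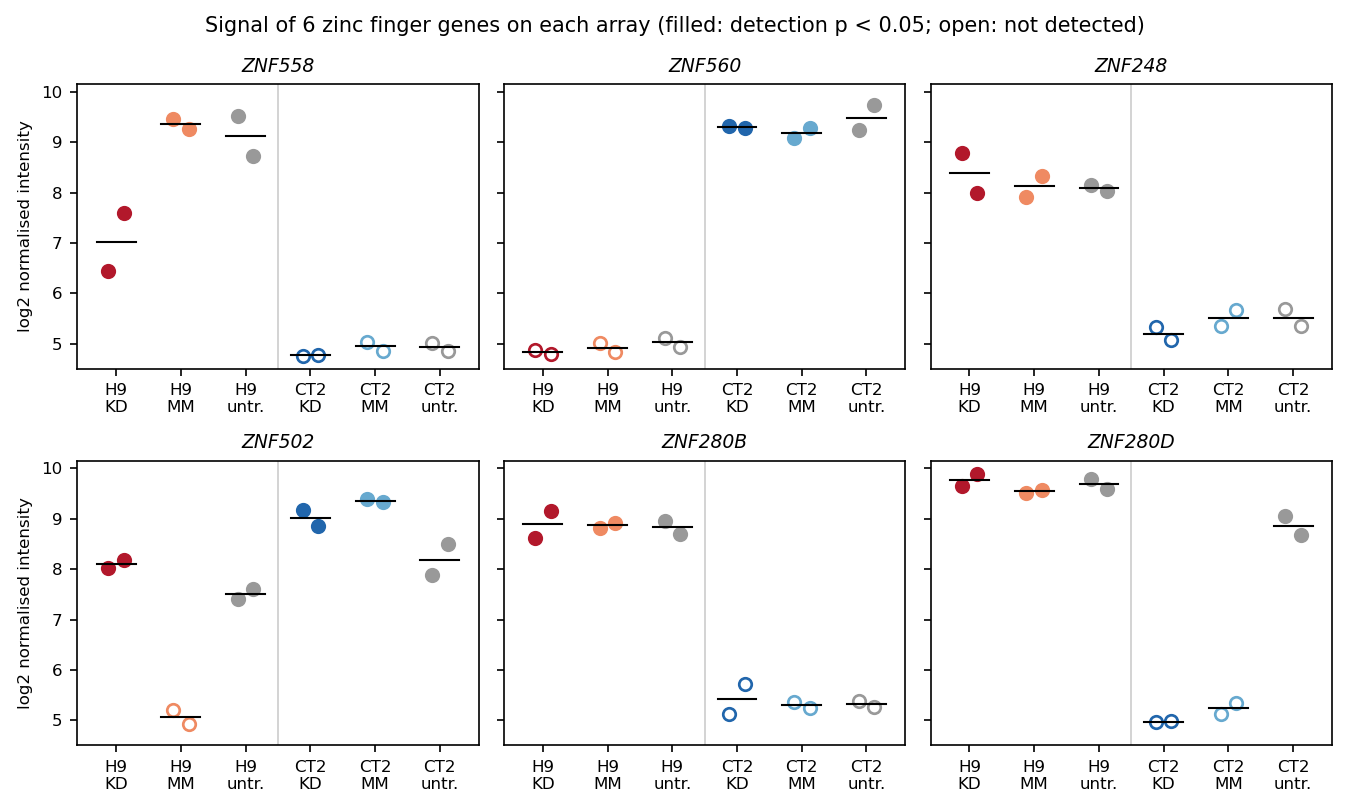
Log2 normalised intensity of each of the 6 genes (highest-mean probe) on every array, by group of line and treatment (KD, JMJD1C shRNA; MM, mismatch shRNA; untr., untreated); filled points are detected arrays, open points undetected ones, and bars are group means. ZNF560 is detected in CT2 only, ZNF558, ZNF248 and ZNF280B in H9 only, while ZNF280D is lost in the 4 CT2 hairpin arrays and ZNF502 in the 2 H9 mismatch arrays.

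ZNF280D, on chromosome 15, differed inside a line: it was detected in untreated CT2 and in all H9 cells, and on none of the 4 CT2 arrays with either hairpin. The probe with the highest mean read 4.959 and 4.996 in CT2 knockdown, 5.13 and 5.36 in CT2 mismatch and 9.04 and 8.68 in untreated CT2 cells. In H9 it read 9.65 and 9.89, 9.51 and 9.56, and 9.78 and 9.59 in the same order of groups. It was undetected in CT2 with the mismatch hairpin as well as with the knockdown hairpin. The knockdown was at least 7.24-fold and the mismatch at least 7.21-fold lower than untreated CT2 cells.

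The other probes of ZNF280D gave the same pattern; they target 1 gene and are not replicates. A probe for another transcript record read 4.900 and 4.996 in CT2 knockdown, 4.91 and 5.36 in CT2 mismatch and 8.35 and 8.77 in untreated CT2 cells, and 8.77 to 9.88 in H9. It was at least 5.86-fold lower with the knockdown and at least 5.84-fold lower with the mismatch hairpin. The last probe read 5.49 and 6.03 in CT2 knockdown, 5.38 and 5.28 in CT2 mismatch and 7.64 and 7.30 in untreated CT2 cells, and its bounds were at least 2.75-fold and 2.74-fold lower. Its array at 6.03 was the nearest to detection among those counted as off. In untreated cells the first probe was 1.77-fold higher in H9 than in CT2 (9.69 ± 0.13 against 8.86 ± 0.26, SD, n = 2 each). The second CT2 mismatch array, which stood apart over all genes, was undetected for all 3 probes, and the mismatch difference of the first probe was −3.73 without it, against −3.62 with it. Without it the mismatch bounds of the 3 probes were at least 7.30-fold, 5.91-fold and 2.78-fold lower than untreated CT2 cells.

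ZNF502, on chromosome 3, encodes a C2H2 zinc finger protein of which little is known, and it was off in only 1 group. Its probe was undetected on both H9 mismatch arrays and detected on the 10 others. It read 8.03 and 8.19 in H9 knockdown, 5.20 and 4.92 in H9 mismatch and 7.40 and 7.61 in untreated H9 cells. In CT2 it read 9.17 and 8.86 in knockdown, 9.38 and 9.33 in mismatch and 7.88 and 8.50 in untreated cells. In H9 the knockdown was at least 4.23-fold higher than the mismatch hairpin, while the mismatch was at least 2.79-fold lower than untreated cells. The H9 knockdown was 1.52-fold higher than untreated H9 cells, without overlap. In CT2 the mismatch group was the highest of all: it was 2.25-fold higher than untreated CT2 cells, the knockdown was 1.77-fold higher than untreated cells, and the knockdown was 1.27-fold lower than the mismatch group. Mismatch minus untreated in CT2 was 1.17 with the array that stood apart and 1.19 without it. The difference between knockdown and mismatch cells was 3.05 in H9 and −0.35 in CT2 on the log2 scale, the CT2 value being −0.37 without that array. The groups ran, from the highest mean, CT2 mismatch (9.36 ± 0.04), CT2 knockdown (9.01 ± 0.22), untreated CT2 (8.19 ± 0.44), H9 knockdown (8.11 ± 0.11), untreated H9 (7.50 ± 0.14) and H9 mismatch (5.06 ± 0.20; SD, n = 2 each). Untreated CT2 and H9 knockdown overlapped in this order, and each other neighbouring pair was apart.

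The size of these differences depends on the background correction. Over the 30 differences of at least 1 log2 unit between groups that did not overlap, the log2 difference was 46.4 to 76.3% of its size without background correction and 43.4 to 73.9% of it in the authors' value table, and none turned direction. For ZNF560 in untreated cells, H9 minus CT2 was −4.45, against −2.69 without the correction and −2.60 in the authors' value table. Both of these are smaller than the bound of 11.6-fold given above, so the bounds hold for the main processing only. With median scaling in place of quantile normalization the ZNF560 difference was −4.30. Leaving out the CT2 mismatch array that stood apart changed little: H9 minus CT2 with the mismatch hairpin was −4.16 without it and −4.25 with it for ZNF560, 4.31 and 4.405 for ZNF558, 2.76 and 2.60 for ZNF248, and 3.50 and 3.56 for ZNF280B. Without that array the bounds with the mismatch hairpin were at least 8.35-fold lower in H9 for ZNF560 and at least 10.3-fold, 4.38-fold and 7.32-fold higher in H9 for ZNF558, ZNF248 and ZNF280B. Within CT2, ZNF560 without it was 1.16-fold higher with the knockdown than with the mismatch hairpin.

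Genes with on and off patterns as wide as these were few on the array. The count asks for 2 log2 units between the nearest on and off arrays, a width set with the data in hand, and since the 6 genes were chosen for such patterns the counts are a background only. Of the 13951 genes, 6 (0.0430%) were detected on all H9 and no CT2 arrays by that width: ZNF248, ZNF280B, COL22A1, FAM217B, RPL22L1 and RRAGB. ZNF558 was outside it, with 1.40 between its lowest H9 and highest CT2 array. The reverse pattern was found for 12 genes (0.0860%), namely ZNF560, ZNF471, ZNF667, ZNF667-AS1, CALCB, DNAJA4, MAOA, MEG9, MLKL, SNORD114-1, SNORD114-3 and TUSC1, of which ZNF471, ZNF667 and ZNF667-AS1 carry zinc finger symbols. The loss in both CT2 hairpin groups was found for 2 genes (0.0143%), ZNF280D and SLITRK4, and the loss in the H9 mismatch group alone for 3 (0.0215%), ZNF502, CRYZ and TYW3.

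**Figure D2:**
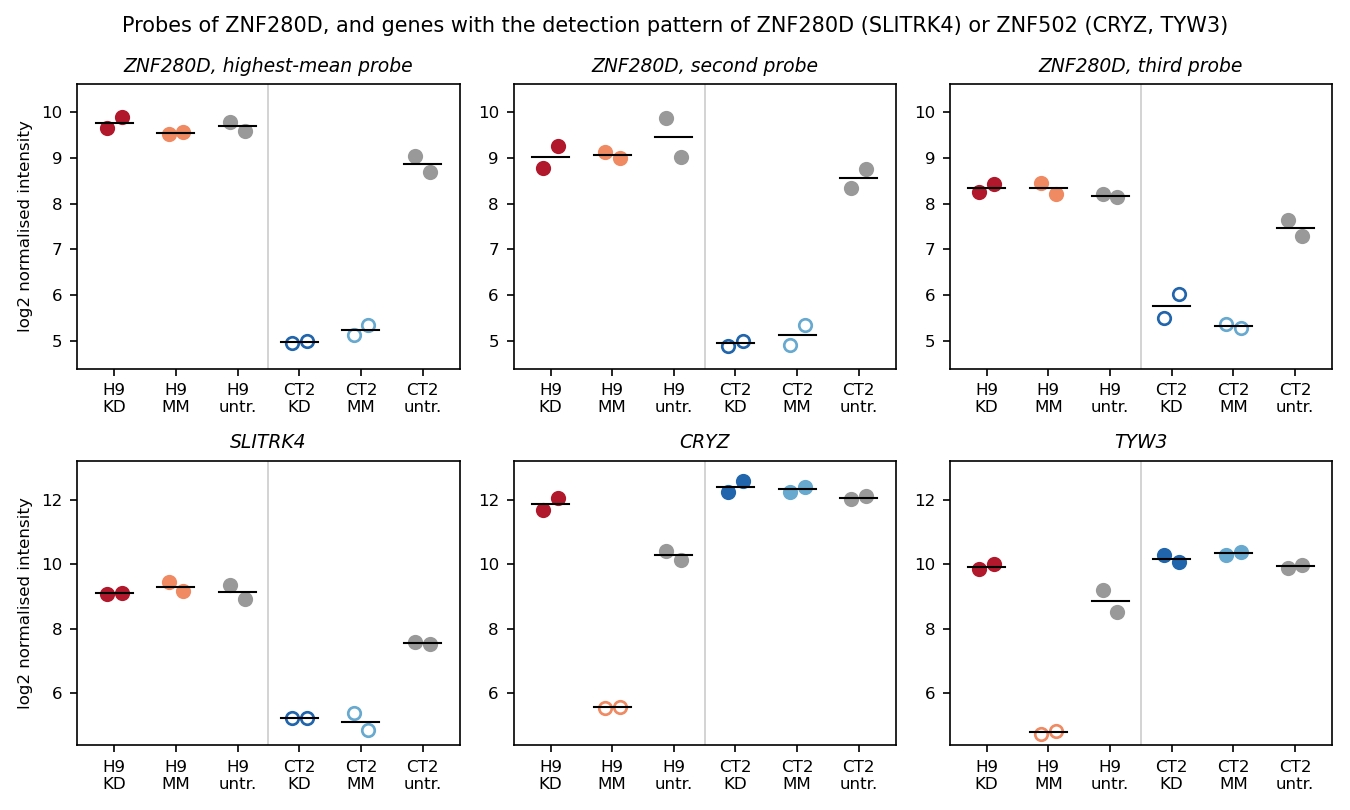
Log2 normalised intensity on every array by group of the 3 ZNF280D probes (top) and of SLITRK4, CRYZ and TYW3 (bottom), with filled points for detected arrays, open points for undetected ones and bars for group means. All 3 probes of ZNF280D and SLITRK4 are undetected in the 4 CT2 hairpin arrays, and CRYZ and TYW3 in the 2 H9 mismatch arrays.

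The genes most like each of the 6 were ranked by Pearson's r over the 12 arrays, among 1214 genes whose values spanned at least 2 log2 units. The arrays fall into 2 lines, so a gene that differs between lines scores high whatever it does inside one; r within 1 line is therefore given as well (H9 for ZNF502, ZNF558, ZNF248 and ZNF280B, and CT2 for ZNF280D and ZNF560), both as descriptions over arrays that share normalization and line. ZNF502 was most like CRYZ, a quinone reductase gene (r = 0.9589, and 0.9935 within the 6 H9 arrays), TYW3, for a tRNA-modifying enzyme (0.9565 and 0.9883), and LCN2, for a siderophore-binding protein (0.9342 and 0.9165). CRYZ read 11.69 and 12.06 in H9 knockdown, 5.54 and 5.58 in H9 mismatch and 10.42 and 10.14 in untreated H9 cells. TYW3 read 9.86 and 9.998, 4.75 and 4.85, and 9.20 and 8.52 in that order, so ZNF502, CRYZ and TYW3 were off on the same 2 arrays and, within H9, highest with the knockdown.

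ZNF280D was most like KHDRBS3, for an RNA-binding splicing regulator (r = 0.9840, and 0.9981 within the 6 CT2 arrays), SLITRK4, for a neuronal membrane protein (0.9732 and 0.9794), and TRA2A, for a splicing activator (0.9260 and 0.8056). KHDRBS3 read 5.69 and 5.54 in CT2 knockdown, 5.66 and 6.14 in CT2 mismatch and 9.58 and 9.39 in untreated CT2 cells. SLITRK4 read 5.23 and 5.23, 5.38 and 4.86, and 7.58 and 7.54 in the same order. Both were at or near background in both hairpin groups, as ZNF280D was.

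For the genes that split the lines, r inside a line was mostly far from r over all arrays. ZNF560 was most like ZNF667-AS1 (r = 0.9943), the cochaperone gene DNAJA4 (0.9942) and the imprinted noncoding MEG3 (0.9941), but within CT2 these were −0.72, 0.13 and 0.11. ZNF248 was most like LDHC, for the testis lactate dehydrogenase (0.9852), FAM217B (0.9784) and RRAGB, for a Rag GTPase (0.9763), with 0.58, −0.54 and 0.28 within H9. ZNF280B was most like RPL22L1, for a ribosomal protein paralogue (0.9947), FAM217B (0.9934) and RRAGB (0.9890), with 0.83, 0.22 and 0.14 within H9. ZNF558 was most like ORM1, for a plasma acute-phase protein (0.9732), SLC24A3, for a cation exchanger (0.9591), and CTAGE15 (0.9493), and for these r within H9, where the knockdown arrays are low, was 0.93, 0.90 and 0.72.

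Several genes beside ZNF560, ZNF280D and ZNF502 stayed detected where these were off. The nearest 2 tested genes on each side were taken for each, 24 in all, and none is one of the 6; these were not used to choose the 6 and were tested by limma over all 13951 genes with Benjamini-Hochberg adjustment at 0.05. Beside ZNF560 lie the zinc finger genes ZNF177, ZNF266, ZNF426 and ZNF121, all detected on all 12 arrays, and H9 minus CT2 in untreated cells, on the log2 scale as all differences here, was 0.39, −0.32, −0.22 and −0.43, with adjusted p-values of 0.381, 0.376, 0.623 and 0.503. Beside ZNF280D, MNS1, for a sperm flagellar protein, and TCF12, for a helix-loop-helix factor, were detected on all 12 arrays, and the CT2 mismatch group minus untreated CT2 was −0.44 (adjusted p = 0.252) and 0.23 (adjusted p = 0.526). In CT2 knockdown cells, where ZNF280D was off too, MNS1 averaged 8.81, against 9.10 in CT2 mismatch and 9.53 in untreated CT2 cells, and TCF12 averaged 10.597, against 10.73 and 10.50; knockdown against untreated cells was not tested. Beside ZNF502, ZNF35 was detected on all 12 arrays, and H9 mismatch minus untreated H9 was −0.07 (adjusted p = 0.935). ZNF501, next to ZNF502 on the other side, was detected on 3 H9 and 5 CT2 arrays, at −0.17 (adjusted p = 0.903). These p-values do not show that the neighbours were equal between groups.

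Some neighbours did pass the test. In untreated H9 against untreated CT2, 3 of 24 were called, where 14.7% of all genes were: PPM1F, a phosphatase gene on the ZNF280B side (−1.14, adjusted p = 0.0132), ZNF414 near ZNF558 (0.96, adjusted p = 0.0375) and ZNF660 near ZNF502 (−1.18, adjusted p = 0.0192). In CT2 mismatch against untreated CT2, 4 were called, where 11.0% of all genes were: HNRNPM (−0.63, adjusted p = 0.011), ZNF35 (−0.85, adjusted p = 0.0353), ZNF414 (1.69, adjusted p = 0.0031) and ZNF660 (−1.51, adjusted p = 0.00782). In CT2 knockdown against mismatch, 2 were called, where 4.56% of all genes were: HNRNPM (0.70, adjusted p = 0.011) and ZNF660 (1.27, adjusted p = 0.0318). In H9 limma called none, where 2.55% of all genes were in knockdown against mismatch and 0.0502% in mismatch against untreated cells, and none in the difference of the knockdown response between lines, where 0.416% were. In CT2, ZNF660 fell with the mismatch hairpin, where ZNF502 was 2.25-fold higher. With 1 of the 12 arrays left out in turn, the calls held in 5 to 11 of 12 fits and kept their sign in all. ZNF660 in CT2 knockdown against mismatch and ZNF414 between untreated lines were lost most often, in 7 of 12 each; each call was lost without at least 1 array of its own untreated or knockdown group. Among 5 other processings, ZNF660 in CT2 knockdown against mismatch was not called in the authors' value table (adjusted p = 0.0508), ZNF35 (0.0548) and ZNF660 between untreated lines (0.0688) were not called with median scaling, and ZNF414 between untreated lines was not called without background correction (0.0515). The nearest tested genes of ZNF248 and ZNF280B on 1 side lie beyond 34 and 56 untested table entries.

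**Figure D3:**
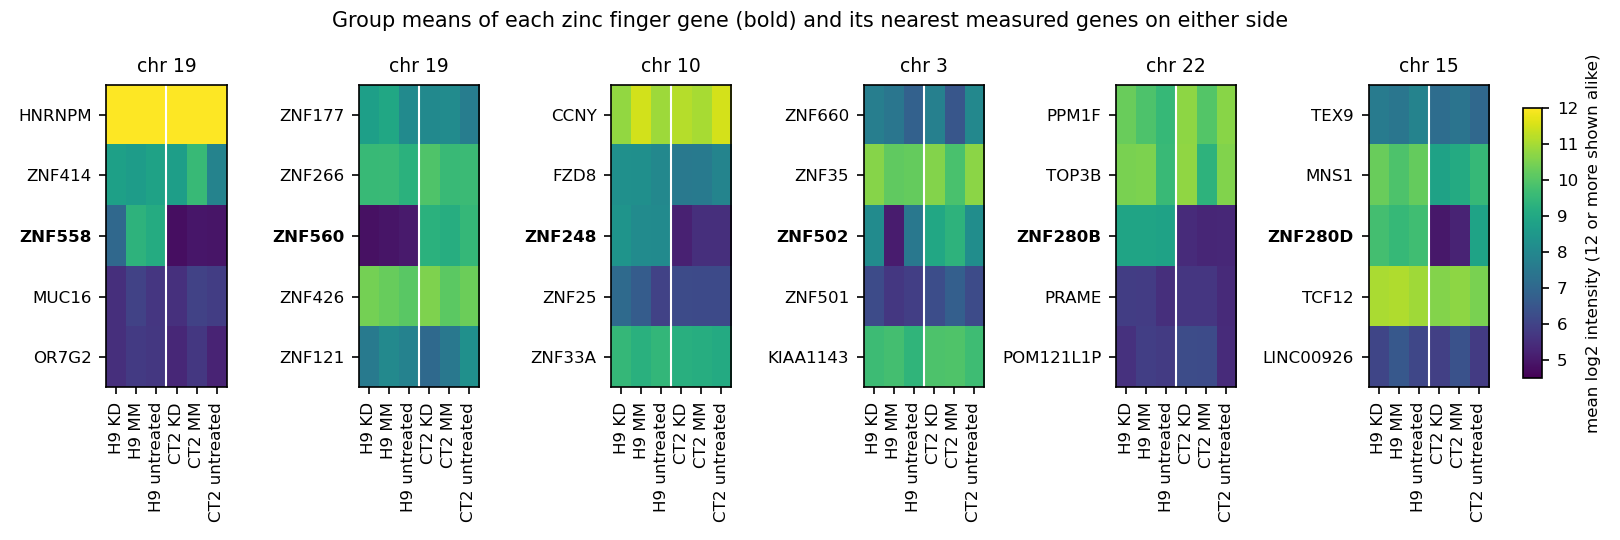
Mean log2 normalised intensity (colour, n = 2) by group, in columns, for each of the 6 genes and its nearest 2 tested genes on either side, in the gene table's order along the chromosome. The 4 zinc finger genes beside ZNF560 and the genes MNS1 and TCF12 beside ZNF280D stay detected in the groups where ZNF560 and ZNF280D are off.

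The corepressor genes on which KRAB proteins depend were present throughout. The 10 listed were TRIM28, SETDB1, ATF7IP, CBX1, CBX3, CBX5, CHD3, CHD4, HDAC1 and HDAC2, and the tested probe of each was detected on all 12 arrays. By limma 2 of 10 were called in untreated H9 against untreated CT2, TRIM28 (a log2 difference of 1.36, adjusted p = 0.02) and HDAC1 (−0.66, adjusted p = 0.0201), and none in the other comparisons. Of all genes 14.7% were called between untreated lines, 11.0% in CT2 mismatch against untreated, and 4.56% and 2.55% in knockdown against mismatch in CT2 and H9. The TRIM28 call was lost without any one of the 4 untreated arrays, and that of HDAC1 without the first untreated H9 array or either untreated CT2 array and in 3 of 5 other processings. SETDB1 averaged 11.28 ± 0.12 in H9 knockdown cells and 10.56 ± 0.04 in H9 mismatch cells (SD, n = 2 each), a difference of 0.72 that did not pass limma's test (adjusted p = 0.146).

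The rest of the family was tested as a list of 454 genes with symbols of the ZNF, ZFP, ZSCAN or ZKSCAN kind, of which 442 are protein coding and 205 lie on chromosome 19. In untreated H9 against untreated CT2, limma called 81 of them (17.8%, against 14.7% of all genes), 17 higher and 64 lower in H9. The median difference was −0.19 over the list and −0.01 over all genes. Of all genes called, 40.6% were higher in H9, against 21% of the called zinc finger genes. The split depended on scaling: it was 26 higher and 30 lower with median scaling, where the median of all genes moved to 0.13, 34 and 37 with quantile normalization within each line (0.15), and 31 and 38 in the authors' value table (0.10). So did the excess over all genes. The 81 of the list and 2057 of all genes became 56 and 1722 with median scaling. They became 71 and 2495 with quantile normalization within each line, and 69 and 2475 in the authors' value table. In none of these was the list's share above that of all genes. On chromosome 19 limma called 6 higher and 37 lower in H9, against 10 and 18 with median scaling, 11 and 21 with quantile normalization within each line and 8 and 21 in the authors' value table. The largest differences were in ZNF667-AS1 (at least 30.4-fold lower in H9, adjusted p = 3.19e-10), ZNF667 (at least 7.85-fold lower, adjusted p = 7.76e-06) and ZNF439 (at least 4.95-fold lower, adjusted p = 2.35e-05), which like ZNF560 were undetected in untreated H9 and detected in CT2, and were called in all 12 fits with 1 array left out. The count was 33 without the first untreated H9 array, and 13 and 18 without the first and the second untreated CT2 array.

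In H9, knockdown against mismatch called 2 of 454 (0.441%, against 2.55% of all genes), both lower. ZNF311 was 5.94 and 5.47 in H9 knockdown cells, against 8.38 and 8.21 in H9 mismatch cells, at least 5.03-fold lower (adjusted p = 0.00102). Untreated H9 cells lay between these groups, at 7.28 and 6.94, and knockdown against untreated cells was not tested. ZFP42, a marker of embryonic stem cells also known as REX1, was 12.20 and 12.34 in H9 knockdown cells and averaged 13.49 in H9 mismatch cells, with a difference of −1.22 ± 0.17 (SE, adjusted p = 0.000662). The same genes were the 2 called for a difference of the knockdown response, H9 minus CT2 (0.441% of the list and 0.416% of all genes), at −3.02 ± 0.54 for ZNF311 (adjusted p = 0.0166) and −1.87 ± 0.24 for ZFP42 (adjusted p = 0.000816). In H9 both were called in all 12 fits with 1 array left out, and the H9 count was 4 without either untreated H9 array. The response count was 14 without the first CT2 mismatch array and 1, with ZNF311 lost, without the second H9 knockdown array, either H9 mismatch array or either CT2 knockdown array.

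Of all genes called by limma in CT2 knockdown against mismatch, 60.4% were higher with the knockdown. Of the zinc finger list this comparison called 14 of 454 (3.08%, against 4.56% of all genes), 13 higher and 1 lower. The largest were ZNF707 (1.79, adjusted p = 0.0198), ZNF671 (1.38, adjusted p = 0.0379) and ZNF239 (1.31, adjusted p = 0.00665). ZNF671 averaged 9.78 in CT2 knockdown, 8.397 in CT2 mismatch and 9.99 in untreated CT2 cells. ZNF239 averaged 10.76, 9.45 and 10.66 in the same order, so for both genes the mismatch group was the low one. ZNF707 averaged 7.999, 6.205 and 7.111, with untreated cells between the other groups. Knockdown against untreated cells was not tested. The count of 14 rests on single arrays. In the 12 fits with 1 array left out, it rose most without the first CT2 mismatch array and fell most without the second CT2 knockdown array. The count of all genes called did the same. ZNF707 was called in 9, ZNF671 in 5 and ZNF239 in 11 of these 12 fits, and all were lost without the second CT2 knockdown array. Mismatch against untreated CT2 called 46 (10.1%, against 11.0%), 22 higher and 24 lower, led by ZNF646 (1.77, adjusted p = 0.0101), ZNF580 (1.73, adjusted p = 0.00435) and ZNF414 (1.69, adjusted p = 0.0031). It was 103 without the first and 18 without the second CT2 mismatch array, and 2 and 4 without the first and the second untreated CT2 array. ZNF646 was called in 9, ZNF580 in 11 and ZNF414 in 11 of the 12 fits, each lost without at least 1 untreated CT2 array. In H9, mismatch against untreated cells called 0 of 454 by limma, against 7 of all 13951 genes (0.0502%). Of the list, 57 had an unadjusted p under 0.05 by limma, with no share of all genes at that threshold to set it against. The count of calls was 0 also with an offset of 50, without background correction and in the authors' value table, and 1 with median scaling. It was 3 without either CT2 mismatch array and 1 without the first untreated H9 array. With so few calls among all genes, the lack of calls in the list does not set zinc finger genes apart. ZNF502, undetected in H9 mismatch cells, was chosen on these arrays and is not in the list.

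**Figure D4:**
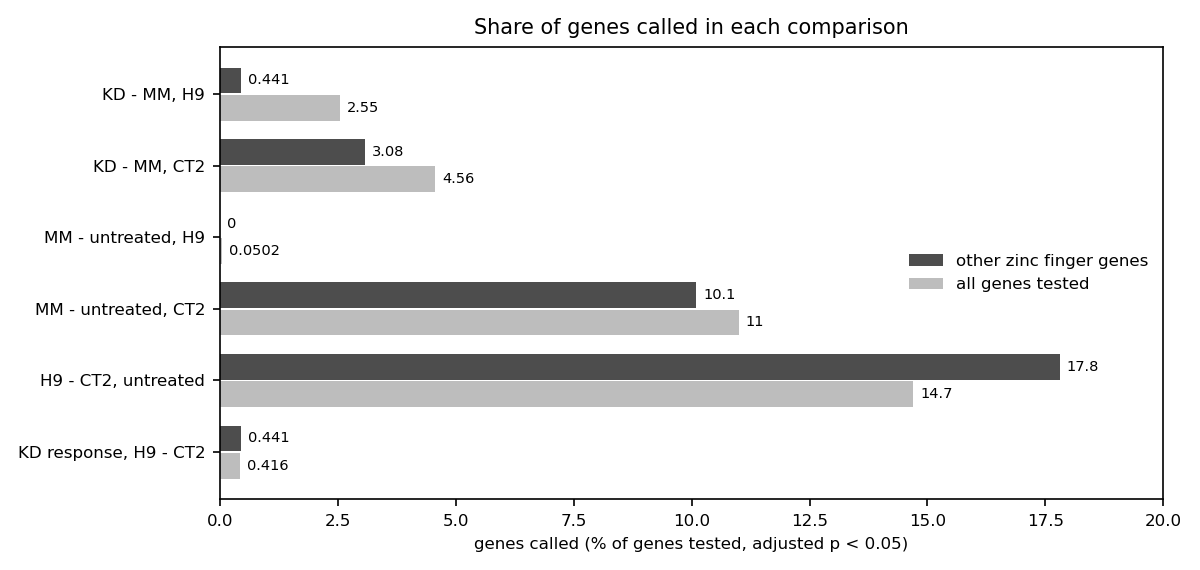
Percent of the 454 other zinc finger genes and of all 13951 genes called by limma at an adjusted p under 0.05, for each of the 6 comparisons. The zinc finger share is 17.8% against 14.7% between untreated lines and 0.441% against 2.55% for the knockdown in H9. The excess between untreated lines depends on the scaling.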

How the data were processed

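Total RNA of 12 arrays in 6 groups of 2 was analysed. Mean bead intensity and a detection p-value for each probe are the 2 quantities in the authors' non-normalized table, per the file headers. The authors used GenomeStudio, per the submitters' processing notes; no version is named there. Each line is a separate block, of 47320 (H9) and 47315 (CT2) probes, which share 47314. Intensities were background-corrected with limma 3.58.1 in R 4.3.3 (normal-exponential model, negative controls inferred from detection p-values, offset 16), quantile-normalized across all 12 arrays and log2-transformed. The filter kept 25905 probes, those with detection p below 0.05 on 2 or more arrays. Of 47314 probes 30108 carried 1 symbol, 8 several and 17198 none. The highest-mean probe stood for a gene, which gave 13951 genes. The platform's probe annotation can be old, and 13941 genes were found in the RefSeq gene table of GRCh38.p14, used for names, chromosomes and neighbours. Promoter sequences are RefSeq's of that build.

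lmFit and eBayes fitted group means to the 12 arrays together (trend, robust), two-sided, with Benjamini-Hochberg adjustment over all genes at 0.05. The number of arrays limits the precision.

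The authors' value table, also linear intensity, was an alternative. Its column medians were 179.8 to 179.9 in H9 and 180.2 to 180.3 in CT2, and each column correlated with its own array at 0.9993 or more, so its direction is settled; 54 cells hold no value. Its normalization, separate in each line, is unstated.

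The genes, their lists (corepressors, cell type markers, neighbours, other zinc finger genes) and the tests were chosen with earlier results of these data known. Named were the 6 genes, the 3 genes most like each, the nearest 2 tested genes on each side, ZNF280A and ZNF280C, 10 corepressors, JMJD1C, and the 3 other zinc finger genes with the largest fold among those called in each comparison. Genes of the pattern counts were named after their values were seen. Alternatives were no background correction, an offset of 50, median scaling, quantile normalization within each line, the authors' value table, no filter, every kept probe, plain empirical Bayes, a replicate block and each array left out.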

Additional observations from a re-analysis of the deposited data

Results flagged for a closer look

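For ZNF502, the 2 contrasts that use the mismatch arrays had opposite signs in the lines. Knockdown minus mismatch was 3.05 in H9 and −0.35 in CT2 (−0.37 without the CT2 mismatch array that stood apart) on the log2 scale, with each knockdown array beyond both mismatch arrays of its line. For the same gene, mismatch minus untreated was −2.45 in H9 and 1.17 in CT2. Both contrasts use the same mismatch arrays, which in H9 were undetected. Knockdown minus untreated, which does not use them, had the same sign in both lines, 0.60 in H9 and 0.82 in CT2, without overlap. In CT2 the SD of the difference between knockdown and mismatch cells was 0.22. The differences were not tested.

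The dimmest of the 3 probes of ZNF280D differed in sign between the lines. Mismatch minus untreated was 0.16 in H9 and −2.14 in CT2 (−2.09 without that array), and knockdown minus untreated was 0.17 in H9 and −1.71 in CT2. The H9 differences are 1.12-fold in size at most, and these differences between lines were not tested. The other probes did not share the sign of the mismatch difference: in H9 it was −0.15 and −0.39, and their knockdown minus untreated was 0.08 and −0.43, with overlapping groups for all but the −0.15.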

How the results depend on the processing

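Of the 30 differences of at least 1 log2 unit described for the 6 genes, 0 reversed in 150 recalculations under 5 other processings. In the 120 recalculations with 1 array left out a reversal was not possible, because the 30 were taken between groups that did not overlap. Of the 150, 67 moved by less than the SD of the difference and 83 by more. Of the 83, 27 came from leaving out the background correction, 27 from the authors' value table and 26 from the offset of 50, all 80 smaller. Counts of other zinc finger genes moved more. Where leaving out 1 array moved such a count in CT2 or between untreated lines, the count of all genes called moved the same way. Median scaling gave 4 for knockdown against mismatch in H9 (2 in the report) and 1 for mismatch against untreated in H9 (0), as did quantile normalization within each line (1). For knockdown against mismatch in CT2 (14) the count was 8 with no filter, 4 with every kept probe tested and 7 without trend and robust settings, which gave 1 for the difference of response (2). With 1 array left out, counts ran from 2 to 4 for knockdown against mismatch in H9, 0 to 68 in CT2, 0 to 3 for mismatch against untreated in H9, 2 to 103 in CT2, 13 to 110 for untreated H9 against CT2, and 1 to 14 for the difference of response. Deviations of same-numbered arrays correlated at an r of −0.32 to 0.21 between groups of a line. These values cannot show whether the numbers pair the arrays. A replicate block gave 6 in place of 14 for knockdown against mismatch in CT2 and stayed within 1.5 times elsewhere. A crossed replicate block, chosen after seeing the data, gave 4, 33, 1, 78 and 127 for the first 5 comparisons. The causes were not tested. Signal near background limits every bound.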
